A study of Mus musculus with 6 samples.

Results

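The genes described here are 32 genes of glucose uptake, glycolysis, lactate export, oxygen sensing and the hypoxia response, measured by RNA sequencing in mouse macrophages challenged with the yeast Candida albicans. They were found by gene symbol, with no measured value in the rule, among the 54532 genes of the deposited table, and all 32 symbols were present (in 33 rows, since Aldoa has 2 identifiers). The study examined how loss of progranulin (PGRN), a secreted glycoprotein encoded by Grn, changes the response of phagocytes to this fungus. Replicates 1, 2 and 3 were WT and replicates 4, 5 and 6 were PGRN KO, all labelled C57BL/6J. According to the labels, peritoneal macrophages (2000000 in each well, in medium with serum) rested overnight and then met the fungus, 1 for each macrophage, over 6 hours. The titles call the WT libraries controls, but the treatment label is the same for all 6 libraries, so genotypes were compared in the presence of the fungus and without a resting baseline. The study's text describes its sequenced macrophages as grown from bone marrow and states a different dose of the fungus, and the labels were followed here. Its methods state that PGRN KO mice came from the Jackson Laboratory and WT mice from Chongqing Medical University, so that genotype and mouse source cannot be told apart. No promoter or Cre that limits the knockout to some cells is named, the methods speak of mice matched for sex and age without giving the age of those whose cells were sequenced, and nothing says whether replicates came from separate animals, so p-values measure only the spread between these libraries, which may be technical.

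Glycolysis takes up glucose through membrane carriers, traps it as glucose 6-phosphate with hexokinase, commits it at phosphofructokinase and ends in pyruvate, which is reduced to lactate and exported or passed to mitochondria. Many of these genes are transcribed under hypoxia-inducible factor 1, whose alpha subunit is marked for destruction by prolyl hydroxylases when oxygen is present. Macrophages that meet microbial products are known to raise glycolysis and to stabilise this factor even with oxygen present.

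The libraries held 15996786 to 17551619 counted fragments, with 3 libraries per group. Grn, the targeted gene, stood at 323 to 337 FPKM (fragments scaled to gene length and library size) in WT and at 0, 0.0166 and 0.0167 FPKM in PGRN KO, matching the labels. PGRN KO replicate 6 stood apart from the other 5 libraries. Its deviation from the gene means ran against gene length (Spearman rho -0.47 across 8882 genes), whereas the same rho was 0.15 to 0.24 in the other 5 libraries. Fold changes are therefore given with and without it. Of 8 macrophage markers all were detected above a mean of 1 FPKM, with a summed level of 11618 to 12561 FPKM in WT and 10445 to 14377 in PGRN KO. Lyz2 and Cd14 made up most of that sum, and the members did not share 1 direction. Csf1r fell (-0.38, limma adjusted p = 0.0178), Mertk rose (0.81, limma adjusted p = 0.00640), and the others did not pass. Among those, every PGRN KO library lay below every WT library for Itgam and above for Lyz2. Among 8 markers of resident peritoneal macrophages 3 reached a mean of 1 FPKM (summed 20.4 to 24.5 FPKM in WT and 20.2 to 24.8 in PGRN KO), with Gata6 at 3.78 to 5.07 FPKM and Timd4 at 0 to 0.204. Icam2 rose (2.94 to 3.26 FPKM in WT, 4.49 to 5.43 in PGRN KO, 0.57, limma adjusted p = 0.00914), and Gata6 and Prg4 did not pass. Markers of other cells differed between the genotypes at low levels: 6 B cell markers summed to 4.79 to 6.08 FPKM in WT and 19.0 to 24.1 in PGRN KO, 5 mast cell markers to 2.23 to 3.19 and 9.31 to 13.9, and 6 T cell markers to 2.32 to 2.73 and 3.66 to 5.13. The 6 monocyte markers summed to 1552 to 1678 FPKM in WT and 2365 to 2676 in PGRN KO, most of it Chil3, but its members parted: Chil3 and Plac8 rose, while Ly6c2 (11.6 to 12.7 against 3.01 to 3.70 FPKM, -1.57, adjusted p = 0.00119) and Fn1 (-0.85, adjusted p = 0.0411) fell. The 6 dendritic cell markers, mostly Ccr7, summed to 27.4 to 34.6 and 15.9 to 19.3 FPKM. Of 10 neutrophil markers S100a8 carried nearly all of the sum (48.8 to 53.2 FPKM in WT, 21.5 to 26.6 in PGRN KO), and Ly6g, Elane and Cxcr2 were at 0 in all 6 libraries. The 7 mesothelial and fibroblast markers summed to at most 3.32 FPKM and the 5 red cell markers to at most 0.317 FPKM in any library. The part of these cells in the results that follow was not tested, and in bulk RNA fewer cells of a type and less RNA per cell cannot be told apart.

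The transcripts that fell in PGRN KO macrophages included a glucose carrier (Slc2a1), the hexokinases Hk1 and Hk2 and the phosphofructokinase subunit Pfkp. Pfkfb3, which makes an activator of phosphofructokinase, the lactate carrier Slc16a1 and the vascular growth factor Vegfa also fell. The hexokinase Hk3, the phosphofructokinase subunit Pfkl and the enzymes between phosphofructokinase and lactate did not pass the test over 6 libraries. Of 31 genes tested (mean of at least 1 FPKM over the 6 libraries), 7 fell and none rose at an adjusted p of 0.05 (limma on log2(FPKM + 1), two-sided, adjusted over 8882 genes): Pfkfb3, Slc16a1, Vegfa, Hk2, Slc2a1, Hk1 and Pfkp. Over all tested genes 13.8% were called lower and 10.4% higher. The median log2 fold change was -0.23 for the 31 genes against -0.03 for all tested genes, and 27 of the 31 were below 0. In 16 of the 31 every PGRN KO library lay below every WT library, against 27.6% of all tested genes, and in 1, Hk3, every PGRN KO library lay above, against 21.2%. The 7 called genes were all among the 16. Together the 32 genes took 1.82% to 2.01% of the summed FPKM in WT libraries and 1.67% to 1.73% in PGRN KO libraries.

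The called number changed when 1 library was left out, and so did that of all tested genes. It was 3 without WT replicate 1 and also without WT replicate 2 (4.3% and 4.99% of all tested genes lower), 4 without WT replicate 3 (5.47%) and also without replicate 4 of PGRN KO (8.78%), 5 without its replicate 5 (9.71%), and 20 without its replicate 6, all lower. Without replicate 6, 25.1% of all tested genes were called lower and 16.2% higher, and the median of the 31 genes was -0.30. Sample quality weights also gave 20 lower (27.8% of all tested genes), as did the correction for gene length without replicate 6 (23.4%), and that correction over 6 libraries gave 11 lower (17.3%). When replicate 6 was left out without any correction, the 11 genes that still did not pass had values of -0.26 (Ldhb) to 0.17 (Hk3). Among them were Pfkl at -0.16, Egln3 at -0.12, Pdk1 at -0.09, Pfkfb4 at -0.05, Eno2 at -0.04, Slc2a6 at 0.07 and Gapdh at 0.14. All 7 genes were among the 20 called in that setting, and the 13 others were Gpi1, Aldoc, Tpi1, Pgk1, Pgam1, Eno1, Pkm, Ldha, Slc16a3, Egln1, P4ha1, Bnip3 and Ankrd37. When each library was corrected for transcript length and GC content, a step chosen after seeing the data, 14 of the 31 were lower and none higher, with 17.4% and 15.6% of all tested genes called lower and higher. On the TPM scale (each library rescaled to the same sum) 6 of the 31 were lower and none higher, against 6.85% of all tested genes lower and 10.4% higher. When libraries were scaled to their summed fragments, 6 were lower and 1, Hk3, was higher, against 7.82% lower and 13.3% higher. The call that was lost in both was that of Pfkp. Over all tested genes the split was 921 higher and 1230 lower as deposited, 922 and 608 on the TPM scale and 1179 and 695 with the fragment sums.

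**Figure D1:**
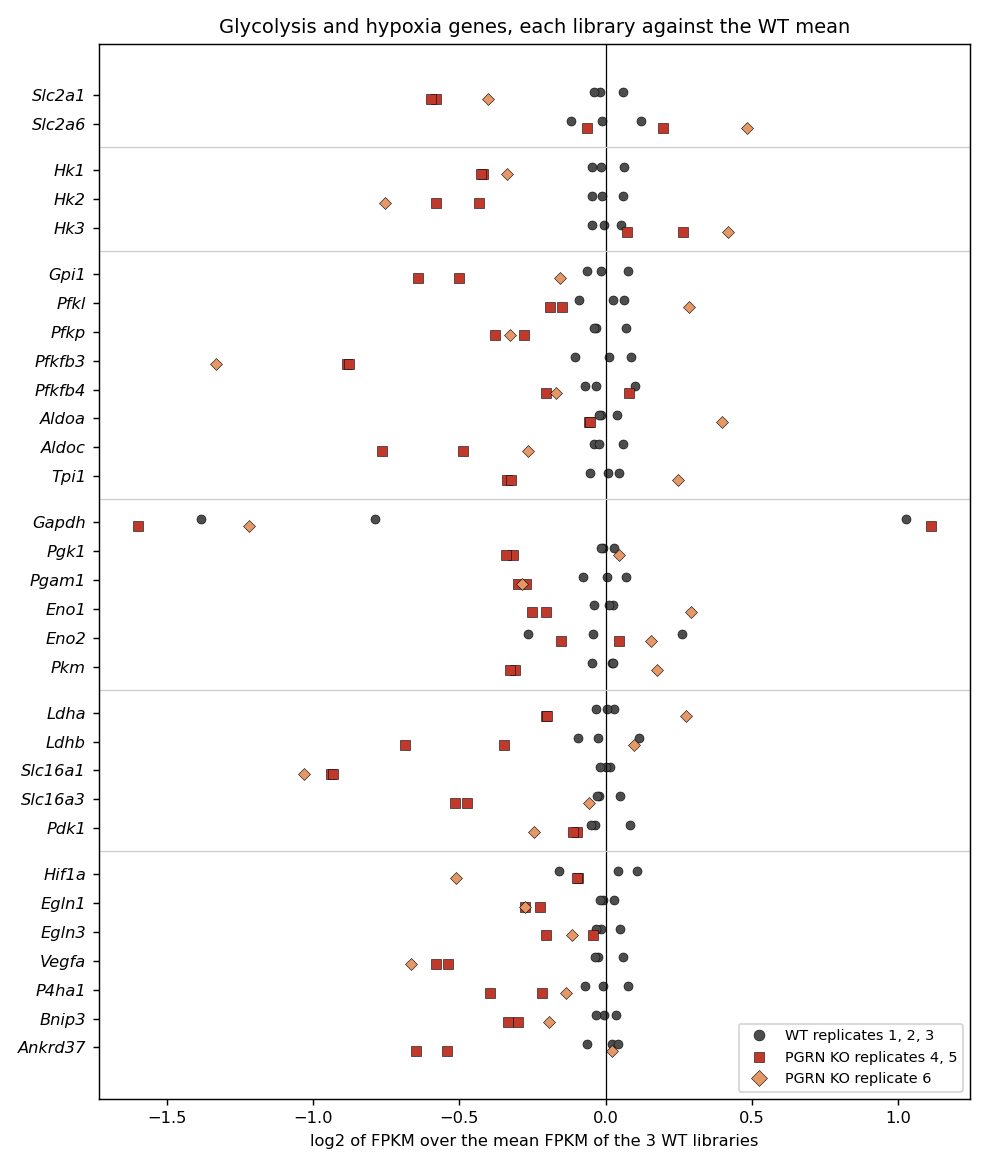
Each point is 1 library's FPKM for 1 gene, as log2 of its ratio to the mean of the 3 WT libraries (horizontal axis), with genes in rows grouped by role. Dark circles are WT replicates 1 to 3, red squares PGRN KO replicates 4 and 5, and orange diamonds PGRN KO replicate 6. For Pfkfb3, Slc16a1, Vegfa, Hk2, Slc2a1 and Hk1 all PGRN KO points lie left of all WT points, whereas for Aldoa, Tpi1, Eno1, Pkm and Ldha the diamond lies to the right of the circles and the squares to the left.

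PGRN KO replicate 6 parted from replicates 4 and 5, upward for some genes and downward for others. Over all tested genes its deviation ran against gene length, as given above, and with GC content (Spearman rho 0.33, against -0.19 to -0.02 in the other libraries). Replicate 6 lay above both for 19 of the 31 genes and below both for 7, against 47.6% and 40.2% of all tested genes. It was the highest of all 6 libraries for 9 of the 31, against 34.3% of all tested genes. Replicates 4 and 5 were themselves close, with a median coefficient of variation of 2.10% over the 31 genes, compared with 3.76% among the WT libraries and 15.5% among all 3 PGRN KO libraries. Both replicates 4 and 5 lay below all WT libraries for 25 of the 31 genes, against 37.0% of all tested genes, and above all of them for 1, against 27.6%. The 3 genes that replicate 6 held lowest relative to replicates 4 and 5 were Pfkfb3, Hif1a and Hk2, at 0.732, 0.750 and 0.841 times their mean (Gapdh aside).

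**Figure D2:**
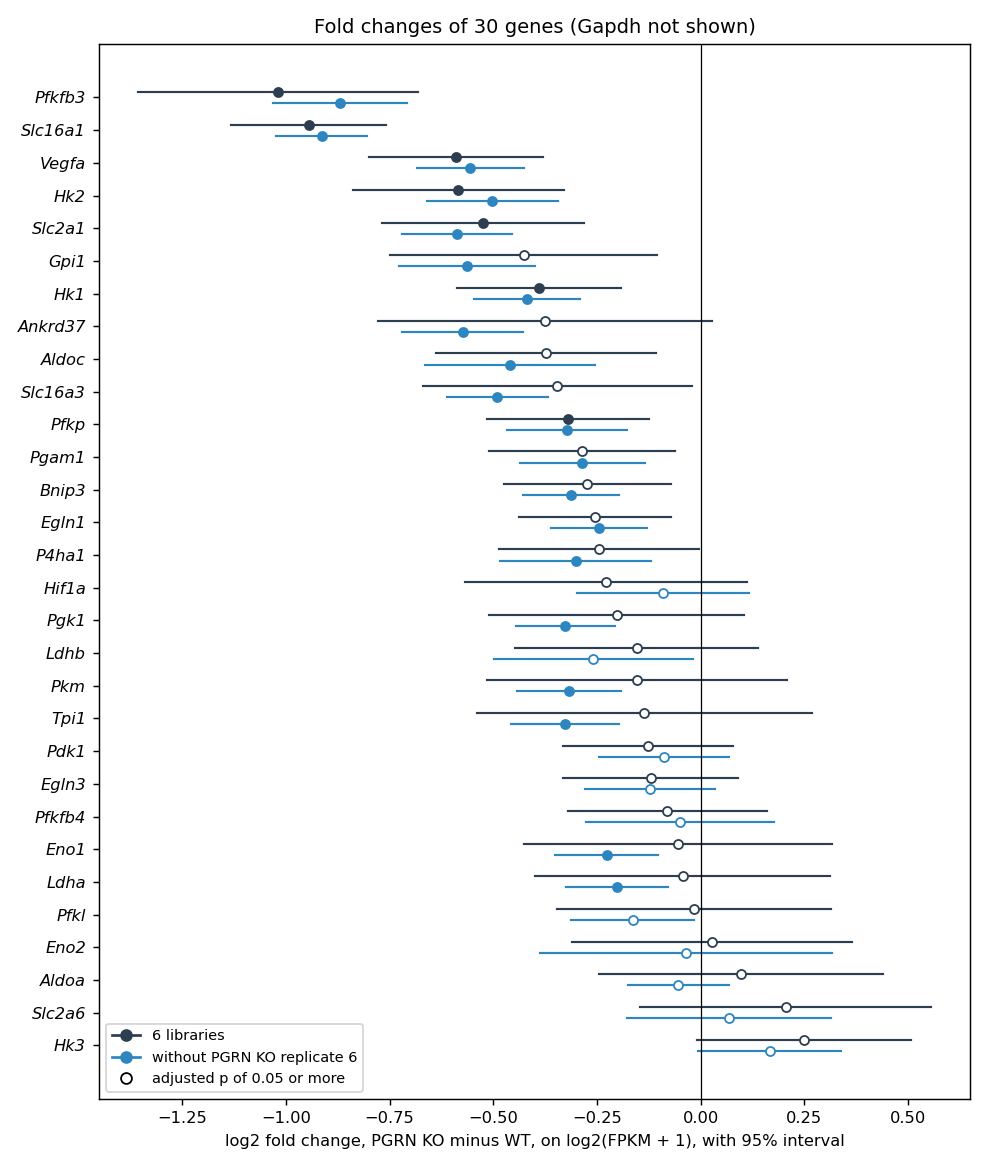
Log2 fold changes (PGRN KO minus WT on log2(FPKM + 1)) with 95% intervals for 30 tested genes, ordered by the estimate over 6 libraries, in dark for 6 libraries and in blue without PGRN KO replicate 6. Filled points passed an adjusted p of 0.05. The intervals shorten without replicate 6, except that of Eno2, and 20 of the blue points are filled against 7 of the dark points. Gapdh is left out because its interval spans -2.07 to 1.73.

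The stretches of DNA just before the starts of the 5 genes with the lowest fold changes among the called genes are printed here, because the hypoxia-inducible factor is known to bind the core ACGTG or GCGTG and several of these genes are textbook targets of it. The sequences are the 250 bases before the RefSeq start nearest the outer end of each gene model, on GRCm38.p6, 5′ to 3′ on the gene's strand, and capitals mark ACGTG or GCGTG on either strand (CACGTG holds ACGTG on both).
Pfkfb3, chr2:11553930-11554179, minus strand: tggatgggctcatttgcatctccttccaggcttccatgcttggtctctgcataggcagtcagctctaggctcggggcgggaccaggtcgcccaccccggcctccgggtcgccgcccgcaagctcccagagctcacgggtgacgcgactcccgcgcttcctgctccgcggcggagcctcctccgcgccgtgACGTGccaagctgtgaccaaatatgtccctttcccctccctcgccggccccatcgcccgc
Slc16a1, chr3:104638414-104638663, plus strand: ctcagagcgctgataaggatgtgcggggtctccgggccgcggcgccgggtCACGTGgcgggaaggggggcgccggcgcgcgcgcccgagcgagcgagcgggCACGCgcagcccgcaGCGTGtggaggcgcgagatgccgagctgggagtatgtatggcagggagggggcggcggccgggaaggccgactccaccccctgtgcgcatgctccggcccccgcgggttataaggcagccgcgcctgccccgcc
Vegfa, chr17:46032378-46032627, minus strand: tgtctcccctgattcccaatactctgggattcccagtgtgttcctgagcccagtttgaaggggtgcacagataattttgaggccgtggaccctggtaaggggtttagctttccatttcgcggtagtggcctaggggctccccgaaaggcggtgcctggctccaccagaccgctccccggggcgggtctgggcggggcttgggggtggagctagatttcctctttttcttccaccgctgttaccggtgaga
Hk2, chr6:82774455-82774704, minus strand: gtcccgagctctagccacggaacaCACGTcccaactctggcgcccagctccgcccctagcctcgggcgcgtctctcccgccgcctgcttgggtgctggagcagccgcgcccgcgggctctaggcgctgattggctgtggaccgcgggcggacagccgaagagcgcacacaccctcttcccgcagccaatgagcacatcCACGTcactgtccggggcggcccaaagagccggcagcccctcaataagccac
Slc2a1, chr4:119108495-119108744, plus strand: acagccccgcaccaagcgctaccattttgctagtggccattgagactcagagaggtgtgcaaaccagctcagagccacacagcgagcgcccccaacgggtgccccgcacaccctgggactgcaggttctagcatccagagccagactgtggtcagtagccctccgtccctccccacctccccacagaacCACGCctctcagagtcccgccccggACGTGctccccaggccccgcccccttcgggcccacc
The Slc16a1 stretch held CACGTG 200 bases before the start and the Slc2a1 stretch held matches 61 and 36 bases before it. Hk2 had matches 226 and 52 bases before the start and Pfkfb3 had 1 match 60 bases before it, while the Vegfa stretch held none. Counting every RefSeq start and the whole searched window of 250 bases before to 50 after each, 29 of the 32 genes (90.6%) had a match, 7 of the 7 called and 22 of the 25 not called. Vegfa and Hk1 had their matches only at an inner start, and for Vegfa no transcript of the GENCODE annotation starts in that window. Of 6413 tested genes with such a window 69.1% had a match, as did 46.7% of all RefSeq genes. A match describes the letters of these windows and is not evidence that a factor binds there.

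Glucose uptake was represented by 1 abundant and 1 minor carrier, and the abundant one fell. Slc2a1 (ENSMUSG00000028645, chromosome 4, 119108711 to 119137983, plus strand, GRCm38), which encodes GLUT1, the main basal and inducible glucose carrier of macrophages, was at 743, 784 and 732 FPKM in the WT libraries, in order of replicate number, and at 503, 498 and 570 in the PGRN KO libraries. No PGRN KO library reached the lowest WT library. The means were 753 ± 27.9 and 524 ± 40.4 FPKM (SD, n = 3 each), PGRN KO being 69.6% of WT, with a log2 fold change of -0.52 ± 0.10 (SE; limma, adjusted p = 0.0138) and of -0.59 ± 0.05 without PGRN KO replicate 6. The call was lost without WT replicate 1, 2 or 3 (adjusted p = 0.0767, 0.0685 and 0.0525) or PGRN KO replicate 4 (0.0540), within a range of 0.000188 to 0.0767 over 18 alternatives. Slc2a6, which encodes GLUT6, a carrier of lysosomal membranes that rises in inflammatory macrophages, was at 44.1, 48.4 and 41.0 FPKM in WT and 51.0, 42.6 and 62.2 in PGRN KO. These groups overlapped, and the log2 fold change was 0.21 ± 0.15 (95% interval -0.15 to 0.56, adjusted p = 0.343). As a share of the FPKM of the 2 carriers, Slc2a6 was 5.31% to 5.81% in WT and 7.89% to 9.84% in PGRN KO, a separation whose exact permutation p of 0.1 is the smallest that 3 against 3 libraries allow.

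The 3 hexokinases, which phosphorylate glucose on entry, did not move together: Hk1 and Hk2 fell and Hk3 did not. Hk2 (ENSMUSG00000000628, chromosome 6, 82725025 to 82774454, minus strand, GRCm38), the inducible isozyme bound to mitochondria, was at 168, 177 and 165 FPKM in WT and 126, 114 and 101 in PGRN KO. Hk1 (ENSMUSG00000037012, chromosome 10, 62268855 to 62379908, minus strand, GRCm38), the constitutive isozyme, was at 98.5, 106 and 101 FPKM in WT and 76.1, 75.7 and 80.5 in PGRN KO. Every PGRN KO library was below every WT library for both. The log2 fold change was -0.58 ± 0.11 for Hk2 (66.8% of WT, adjusted p = 0.0115) and -0.39 ± 0.08 for Hk1 (76.1% of WT, adjusted p = 0.0184), and -0.50 and -0.42 without PGRN KO replicate 6. The Hk2 call was lost without WT replicate 1 or 2 (adjusted p = 0.0623 and 0.0586, range over 18 alternatives 0.000615 to 0.0623). The Hk1 call was lost without WT replicate 1, 2 or 3 (0.0861, 0.0912 and 0.0713), without PGRN KO replicate 4 or 5 (0.0605 and 0.0536) and after a correction for gene length (-0.29, 0.0744), in a range of 0.000723 to 0.0912.

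Hk3, a hexokinase most abundant in myeloid cells, went the other way in level. It was at 72.8, 77.9 and 74.8 FPKM in WT and at 90.3, 79.1 and 100.4 in PGRN KO, so that the lowest PGRN KO library lay just above the highest WT library. The log2 fold change of 0.25 ± 0.11 did not pass (adjusted p = 0.139), nor did the 0.17 ± 0.07 without PGRN KO replicate 6 (adjusted p = 0.108), in a range of 0.0314 to 0.350 over the 18 alternatives. Because Hk2 and Hk1 were lower and Hk3 was not, the make-up of hexokinase transcripts differed. Hk2 made up 48.4% to 49.6% of the summed hexokinase FPKM in WT and 35.8% to 43.1% in PGRN KO, Hk3 made up 21.4% to 22.0% and 29.4% to 35.6%, and Hk1 29.0% to 29.6% and 26.0% to 28.6%. The groups did not overlap for any of the 3 (exact permutation p = 0.1 each, the smallest possible), and the sum of the 3 was 347 ± 12.4 FPKM in WT and 281 ± 12.0 in PGRN KO. In PGRN KO replicates 4, 5 and 6 the Hk2 share was 43.1%, 42.4% and 35.8%. The Hk3 share was 30.9%, 29.4% and 35.6%, so replicate 6 lay farthest from WT for both.

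**Figure D3:**
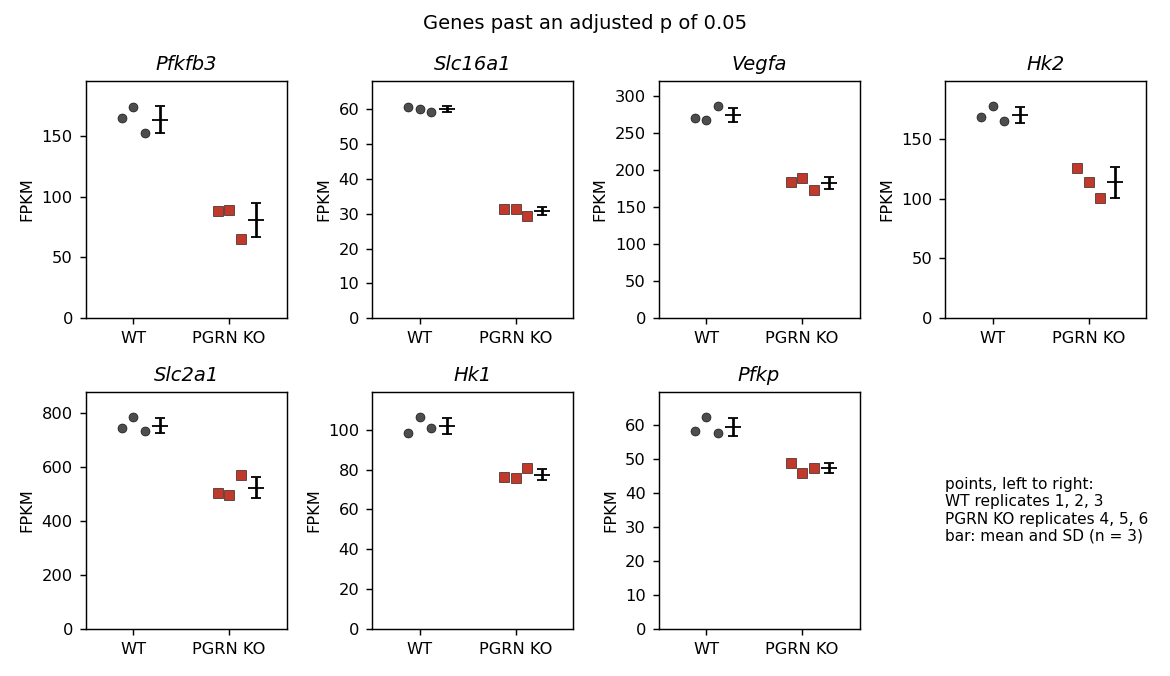
FPKM per library (vertical axes, from 0) of the 7 genes past an adjusted p of 0.05, with WT replicates 1 to 3 as dark circles and PGRN KO replicates 4 to 6 as red squares from left to right, and bars for the mean and SD (n = 3). In each panel all PGRN KO libraries lie below all WT libraries, for Slc16a1 at 29.4 to 31.5 against 59.4 to 60.8 FPKM.

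The lowest fold change of the 31 genes was that of a regulator of the committed step of upper glycolysis, not of phosphofructokinase-1 itself. Pfkfb3 (ENSMUSG00000026773, chromosome 2, 11471433 to 11554077, minus strand, GRCm38), which makes fructose 2,6-bisphosphate, the strongest activator of phosphofructokinase-1, was at 165, 174 and 152 FPKM in WT and at 88.7, 89.1 and 65.0 in PGRN KO. Its highest PGRN KO library was well under its lowest WT library. The means were 164 ± 10.8 and 80.9 ± 13.8 FPKM (SD, n = 3 each), PGRN KO being 49.5% of WT, with a log2 fold change of -1.02 ± 0.14 (SE; limma, adjusted p = 0.00497) and -0.87 ± 0.07 without PGRN KO replicate 6. It passed under all 18 alternatives, with adjusted p at most 0.0335. Pfkfb4, a second enzyme of that kind, was far less abundant, at 5.19, 5.05 and 5.68 FPKM in WT and 4.61, 5.61 and 4.71 in PGRN KO. Its groups overlapped (-0.08 ± 0.10, adjusted p = 0.591), and its share of the FPKM of both genes was 2.82% to 3.60% in WT and 4.94% to 6.76% in PGRN KO (exact permutation p = 0.1).

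Phosphofructokinase-1 itself was divided between its platelet-type and liver-type subunits. Pfkp (ENSMUSG00000021196, chromosome 13, 6579768 to 6648777, minus strand, GRCm38), the platelet type, was at 58.1, 62.2 and 57.7 FPKM in WT and 48.9, 45.7 and 47.3 in PGRN KO, without overlap (79.7% of WT, -0.32 ± 0.08, adjusted p = 0.0329, -0.32 without PGRN KO replicate 6). This was the least stable of the 7 calls. It was lost without WT replicate 1, 2 or 3 (adjusted p = 0.130, 0.139 and 0.0958), without PGRN KO replicate 4 or 5 (0.0668 and 0.0847), and under 3 other alternatives, up to 0.331 after correction for gene length, in a range from 0.00322. The Pfkp gene model, at 13401 bases the longest of the 32 genes, overlaps exons of Pitrm1 on the opposite strand by up to 748 bases, and whether strand was used in counting is not stated. Pfkl, the liver type, was at 46.0, 49.8 and 51.2 FPKM in WT and 44.3, 43.0 and 59.7 in PGRN KO, where replicates 4 and 5 were the lowest of the 6 libraries and replicate 6 the highest (-0.02 ± 0.14, adjusted p = 0.942). Its direction turned under 7 of the 18 alternatives, scalings included. Pfkm, the muscle type, was at 0.232 to 0.486 FPKM in WT and 0.311 to 0.589 in PGRN KO, below the level tested. The summed FPKM of Pfkl, Pfkm and Pfkp was 105 to 113 in WT and 93.4, 89.1 and 108 in PGRN KO, so the groups overlapped.

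The remaining enzymes of upper glycolysis did not pass over 6 libraries. Gpi1, which isomerises glucose 6-phosphate, was at 108, 111 and 119 FPKM in WT and 72.3, 79.7 and 101 in PGRN KO, without overlap. Its log2 fold change was -0.43 ± 0.14 (adjusted p = 0.0612) and -0.56 ± 0.07 without PGRN KO replicate 6, where it passed (adjusted p = 0.00206, range over 18 alternatives 0.000686 to 0.177). Aldoc, a minor aldolase, was at 3.43, 3.67 and 3.47 FPKM in WT and 2.51, 2.07 and 2.93 in PGRN KO, also without overlap (-0.37 ± 0.11, adjusted p = 0.0512, and -0.46 without replicate 6, where it passed). Aldoa, the main aldolase, which splits fructose 1,6-bisphosphate, was at 616 to 643 FPKM in WT and at 602, 604 and 825 in PGRN KO. Only replicate 6 lay above WT, and the log2 fold change was 0.10 ± 0.15 over 6 libraries and -0.05 ± 0.05 without it, neither past the test. Tpi1, triosephosphate isomerase, had the same shape at 585 to 627 FPKM in WT and 481, 486 and 721 in PGRN KO. Its log2 fold change was -0.14 ± 0.17 over 6 libraries and -0.33 ± 0.05 without replicate 6, where it passed. The second Aldoa identifier was counted at 3 fragments or fewer in every library.

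In lower glycolysis none of the 6 tested genes passed over 6 libraries, and 4 passed without PGRN KO replicate 6. Pgam1, phosphoglycerate mutase, was the 1 gene of this group whose libraries did not overlap, at 711, 743 and 670 FPKM in WT and 575, 585 and 580 in PGRN KO (82.0% of WT, -0.29 ± 0.09, adjusted p = 0.0690). Pgk1, which makes the first ATP of the pathway, was at 694 to 716 FPKM in WT and 564, 555 and 724 in PGRN KO. Pkm, pyruvate kinase, was at 636 to 668 FPKM in WT and 530, 524 and 741 in PGRN KO. In both, replicates 4 and 5 were below all WT libraries and replicate 6 was above them. Eno1, the main enolase, shared that order, at 450 to 471 FPKM in WT and 388, 402 and 565 in PGRN KO. The log2 fold changes over 6 libraries were -0.20 ± 0.13 for Pgk1, -0.15 ± 0.15 for Pkm and -0.05 ± 0.16 for Eno1, and without replicate 6 they were -0.33, -0.32 and -0.23, with Pgam1 at -0.29. Eno1 turned above 0 with the fragment sums as library size and under quantile normalization. Eno2, a second enolase, was at 7.90 to 11.4 FPKM in WT and 8.55 to 10.6 in PGRN KO, and the groups overlapped (0.03 ± 0.14).

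Gapdh, which oxidises glyceraldehyde 3-phosphate and often serves as a reference gene, could not be compared. It was at 50.9, 9.59 and 14.5 FPKM in WT and 53.9, 8.26 and 10.7 in PGRN KO, so that replicates 1 and 4 were high and the other 4 libraries low. The log2 fold change was -0.17 ± 0.81 (95% interval -2.07 to 1.73). Its levels were also far below those of its neighbours in the pathway, such as Pgk1 at 555 to 724 FPKM. Of the 31-base words of its gene model 28.1% also occurred in other gene models, over 330 genes. The sources used here do not say how reads that fit several copies were counted, and the part of such copies was not tested. Among the tested genes 12 shared over 10% of their words with other models, from 10.5% in Tpi1 to 54.7% in Pgk1 and 57.0% in Bnip3, so their levels are uncertain. The others were Pgam1, Pkm, Ldhb, Eno1, Gpi1, Ankrd37, Ldha and Aldoa. None of the 7 called genes was among them, the highest being Pfkp at 5.29%.

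The lactate and pyruvate branch held the second lowest fold change. Slc16a1 (ENSMUSG00000032902, chromosome 3, 104638668 to 104658462, plus strand, GRCm38), which encodes the monocarboxylate transporter MCT1, a carrier of lactate and pyruvate in either direction, was at 60.8, 60.3 and 59.4 FPKM in WT and 31.4, 31.5 and 29.4 in PGRN KO. Libraries within each genotype differed little, and PGRN KO replicate 6 was near the other PGRN KO libraries. The means were 60.1 ± 0.73 and 30.8 ± 1.16 FPKM (SD, n = 3 each), PGRN KO being 51.2% of WT, with a log2 fold change of -0.94 ± 0.08 (SE; limma, adjusted p = 0.00119) and -0.91 ± 0.04 without replicate 6. It passed under all 18 alternatives, with adjusted p at most 0.0147. Slc16a3, which encodes MCT4, the lactate exporter of glycolytic cells, was more abundant, at 187, 186 and 197 FPKM in WT and 133, 137 and 183 in PGRN KO. Its libraries did not overlap, although replicate 6 lay just under the lowest WT library. Its log2 fold change of -0.35 ± 0.14 did not pass (adjusted p = 0.110) and -0.49 ± 0.05 without replicate 6 did (adjusted p = 0.00131, range over 18 alternatives 0.000580 to 0.253). The share of Slc16a1 in the FPKM of the 2 carriers was 23.2% to 24.5% in WT and 13.9% to 19.1% in PGRN KO (exact permutation p = 0.1). The lowest share was that of replicate 6, with 19.1% and 18.7% in replicates 4 and 5.

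Ldha, the lactate dehydrogenase subunit that favours lactate formation, was at 751, 785 and 772 FPKM in WT and 668, 669 and 930 in PGRN KO, the most abundant of the 32 genes in WT. Replicates 4 and 5 were below all WT libraries and replicate 6 above all of them. Its log2 fold change was -0.04 ± 0.15 over 6 libraries, above 0 on the TPM scale and with the fragment sums, and -0.20 ± 0.05 without replicate 6, where it passed (adjusted p = 0.0225, range over 18 alternatives 0.0225 to 0.954). Ldhb, the subunit that favours pyruvate, was barely expressed, at 1.16 to 1.34 FPKM in WT and 0.772, 0.976 and 1.33 in PGRN KO, from 21 to 38 fragments per library. It did not pass (-0.15 ± 0.12). Pdk1, a kinase that shuts pyruvate out of mitochondria by inactivating pyruvate dehydrogenase, was at 5.48 to 6.01 FPKM in WT and 5.30, 5.25 and 4.79 in PGRN KO. Its groups did not overlap but lay close together, with a log2 fold change of -0.13 ± 0.09 (95% interval -0.33 to 0.08, adjusted p = 0.315).

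**Figure D4:**
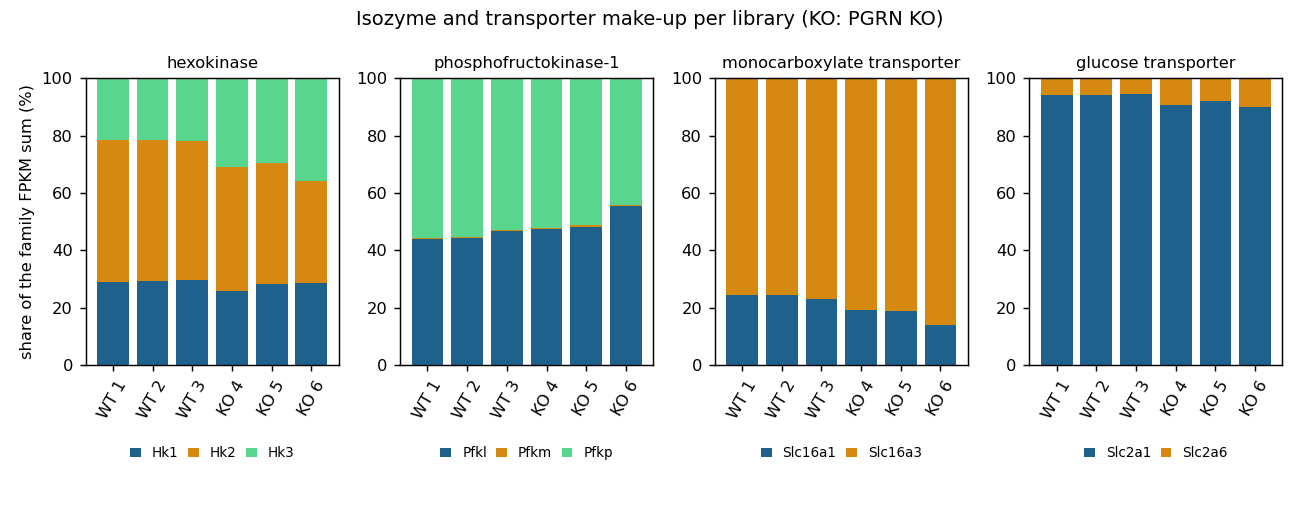
Stacked bars give, for each library (horizontal axis), the percent of the summed FPKM of a family taken by each gene (vertical axis, 0 to 100), for the hexokinases, the phosphofructokinase-1 subunits, the monocarboxylate transporters and the glucose transporters. KO 4 to 6 are the PGRN KO libraries. Hk3 takes 21.4% to 22.0% in WT and 29.4% to 35.6% in PGRN KO, and Slc16a1 takes 23.2% to 24.5% in WT and 13.9% to 19.1% in PGRN KO.

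The 7 genes of oxygen sensing and hypoxia targets all had log2 fold changes below 0, and 1 of them, Vegfa, passed over 6 libraries. Vegfa (ENSMUSG00000023951, chromosome 17, 46016993 to 46032369, minus strand, GRCm38), the vascular growth factor and a classical hypoxia target, was at 269, 267 and 285 FPKM in WT and 183, 189 and 173 in PGRN KO. All PGRN KO libraries were well below all WT libraries. The means were 274 ± 9.93 and 182 ± 7.96 FPKM (SD, n = 3 each), PGRN KO being 66.3% of WT, with a log2 fold change of -0.59 ± 0.09 (SE; limma, adjusted p = 0.00594) and -0.56 ± 0.05 without PGRN KO replicate 6. It passed under all 18 alternatives, with adjusted p at most 0.0447. Hif1a, the oxygen-regulated subunit itself, was at 143, 149 and 124 FPKM in WT and 130, 129 and 97.2 in PGRN KO. Its groups overlapped, and the transcript did not pass (-0.23 ± 0.14, 95% interval -0.57 to 0.11, adjusted p = 0.279, and -0.09 without replicate 6). Transcript levels do not measure the protein, which is set mostly by its breakdown.

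The prolyl hydroxylases that mark this subunit are themselves hypoxia targets. Egln1, which encodes PHD2, was at 57.6, 56.2 and 55.7 FPKM in WT and 46.7, 48.4 and 46.6 in PGRN KO, without overlap and with replicate 6 beside the others. Its log2 fold change of -0.25 ± 0.08 missed the threshold (adjusted p = 0.0541) and passed without replicate 6 (-0.24 ± 0.05, adjusted p = 0.00964, range over 18 alternatives 0.00310 to 0.268). Egln3, which encodes PHD3, was at 179, 177 and 187 FPKM in WT and 158, 176 and 167 in PGRN KO, where the highest PGRN KO library lay just under the lowest WT library (-0.12 ± 0.09, adjusted p = 0.356). Bnip3, a mediator of mitophagy, was at 105, 108 and 103 FPKM in WT and 83.8, 85.7 and 92.2 in PGRN KO (-0.27 ± 0.08, adjusted p = 0.0568). P4ha1, a subunit of the collagen prolyl hydroxylase, was at 118, 125 and 113 FPKM in WT and 102, 90.4 and 108 in PGRN KO (-0.25 ± 0.10, adjusted p = 0.122). Neither gene's groups overlapped, and both passed without replicate 6 (-0.31 and -0.30). Ankrd37, a small ankyrin-repeat protein induced by hypoxia, was at 35.7 to 38.4 FPKM in WT and 23.9, 25.7 and 37.9 in PGRN KO. Replicate 6 sat within the WT range, and the log2 fold change moved from -0.38 ± 0.17 to -0.57 ± 0.06 without it, where it passed.

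Other genes of the same pathways did not share one direction. Of 21 further genes of glycolysis and glucose uptake 9 were expressed enough to be tested, and 2 rose and none fell, with a median log2 fold change of 0.30. Minpp1, a phosphatase that can act on 2,3-bisphosphoglycerate, was at 6.14 to 6.20 FPKM in WT and 9.48 to 13.7 in PGRN KO (0.75 ± 0.13, adjusted p = 0.0102). It was low in level beside the main enzymes. The Minpp1 call was lost without WT replicate 1 (0.74, adjusted p = 0.0509). Its log2 fold change was 0.61 ± 0.06 without PGRN KO replicate 6, and did not turn direction under any of the 18 alternatives.

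Of 31 further symbols listed for the hypoxia pathway (Ero1l and Ero1a being names of the same gene) 24 were tested, and 5 fell and 4 rose. The median log2 fold change was -0.05. Ndrg1, a hypoxia-induced stress protein, was at 67.4 to 72.7 FPKM in WT and 37.7 to 39.6 in PGRN KO (-0.84 ± 0.08, adjusted p = 0.00154). Hmox1, heme oxygenase, was at 639 to 656 FPKM in WT and 327 to 421 in PGRN KO (-0.80 ± 0.12, adjusted p = 0.00565). Kdm3a, a histone demethylase induced by hypoxia, was at 17.9 to 18.4 FPKM in WT and 7.80 to 11.7 in PGRN KO (-0.78 ± 0.15, adjusted p = 0.0135). None of these 3 overlapped between genotypes. Bhlhe40, a transcriptional repressor (-0.51), and Vhl, the ubiquitin ligase subunit that binds hydroxylated hypoxia-inducible factor (-0.31), also fell. In the opposite direction Adm, the vasodilator peptide adrenomedullin, was at 3.01 to 5.55 FPKM in WT and 7.28 to 10.2 in PGRN KO (1.00 ± 0.20, adjusted p = 0.0153). Cited2, a competitor of hypoxia-inducible factor for its coactivator, was at 39.7 to 47.1 FPKM in WT and 70.0 to 87.4 in PGRN KO (0.85 ± 0.12, adjusted p = 0.00451). Plod1, a collagen lysyl hydroxylase (0.46), and P4ha2, the sister of P4ha1 (0.31), rose as well. Vhl, P4ha2 and Bhlhe40 are named outside the rule for named genes, after their values were seen.

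Some of these calls were lost when 1 library was left out. Calls over all tested genes fell too, from 2151 to 713, 855 and 883 without WT replicates 1, 2 and 3. Without WT replicate 1 the calls of Kdm3a (-0.77), Adm (0.98), Plod1 (0.49), P4ha2 (0.31), Bhlhe40 (-0.49) and Vhl (-0.32) were lost, and without WT replicate 2 those of Kdm3a (-0.77), Plod1 (0.45), P4ha2 (0.30), Bhlhe40 (-0.48) and Vhl (-0.31). Without WT replicate 3 those of Kdm3a (-0.79), Adm (0.84), Plod1 (0.45), P4ha2 (0.32) and Vhl (-0.30) were lost. P4ha2 and Vhl were also lost without PGRN KO replicate 4 (0.34 and -0.30), and Vhl was at -0.34 and P4ha2 at 0.32 without PGRN KO replicate 5, again not past the test. Ndrg1, Hmox1 and Cited2 passed under all 18 alternatives. Other alternatives ended the calls of Adm (no filter on low FPKM), Kdm3a (TPM scale), P4ha2 (TPM scale and correction for transcript length and GC content) and Vhl (TPM scale, fragment sums and quantile normalization). Without PGRN KO replicate 6 the list had 10 lower and 6 higher genes of 24 tested, where 25.1% of all tested genes were lower and 16.2% higher. In that setting Ndrg1 was at -0.83, Hmox1 at -0.89, Kdm3a at -0.60, Bhlhe40 at -0.50, Vhl at -0.28, Adm at 0.94, Cited2 at 0.77, Plod1 at 0.39 and P4ha2 at 0.27.

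Beside glycolysis, 1 of 7 genes of the pentose phosphate pathway rose and none fell. This was Rpe, which epimerises ribulose 5-phosphate, at 11.2 to 12.3 FPKM in WT and 15.0 to 16.5 in PGRN KO (0.41 ± 0.09, adjusted p = 0.0166). Of 9 tested genes of pyruvate entry into mitochondria 2 rose and none fell. They were Pdk3, a second pyruvate dehydrogenase kinase, at 6.97 to 7.56 FPKM in WT and 8.91 to 12.0 in PGRN KO (0.51 ± 0.13, adjusted p = 0.0284), and Mpc1, a subunit of the mitochondrial pyruvate carrier, at 5.00 to 6.37 and 6.67 to 9.34 FPKM (0.47 ± 0.14, adjusted p = 0.0491). Only 2 of 7 genes of gluconeogenesis were tested, and G6pc3, a glucose 6-phosphatase subunit, rose (0.59 ± 0.17, adjusted p = 0.0484). The Rpe, Pdk3, Mpc1 and G6pc3 calls were each lost without any 1 of the WT libraries, at 0.38 to 0.44, 0.48 to 0.53, 0.41 to 0.56 and 0.54 to 0.67, and that of Mpc1 also without PGRN KO replicate 4 or 5 (0.45 and 0.38), those of Rpe and Pdk3 without replicate 4 (0.38 and 0.44) and that of G6pc3 without replicate 5 (0.62). The Mpc1 call was the least stable of these: it passed under 8 of 18 alternatives and was also lost after correction for gene length (0.42), after correction for transcript length and GC content (0.44), on the TPM scale, without the variance trend and without the filter on low FPKM, with adjusted p in a range of 0.00521 to 0.157. Pdk3 and G6pc3 also missed the threshold without that filter. Without PGRN KO replicate 6 the log2 fold changes were 0.39 for Rpe, 0.45 for Pdk3, 0.59 for Mpc1 and 0.41 for G6pc3, all past the test.

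Among 11 tested regulators of glycolytic transcription 1 fell and 1 rose. Nfe2l2, which encodes the antioxidant regulator NRF2, was at 38.3 to 42.4 FPKM in WT and 22.9 to 25.1 in PGRN KO (-0.74 ± 0.09, adjusted p = 0.00286), past the test under all 18 alternatives. Irf5, a transcription factor of inflammatory macrophages, was at 32.5 to 39.2 FPKM in WT and 52.0 to 71.2 in PGRN KO (0.79 ± 0.14, adjusted p = 0.00925). Its groups did not overlap, and its call was lost without WT replicate 1 (0.78, adjusted p = 0.0506). Over 6 libraries all these lists stand against the same background of 13.8% of tested genes lower and 10.4% higher. Without PGRN KO replicate 6 that background was 25.1% lower and 16.2% higher. The numbers higher and lower were then 3 and 0 for the other glycolysis genes, 1 and 1 for the pentose phosphate pathway and 2 and 0 for pyruvate entry. They were 1 and 0 for gluconeogenesis and 3 and 1 for the regulators, with Nfe2l2 at -0.70 and Irf5 at 0.69.

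**Figure D5:**
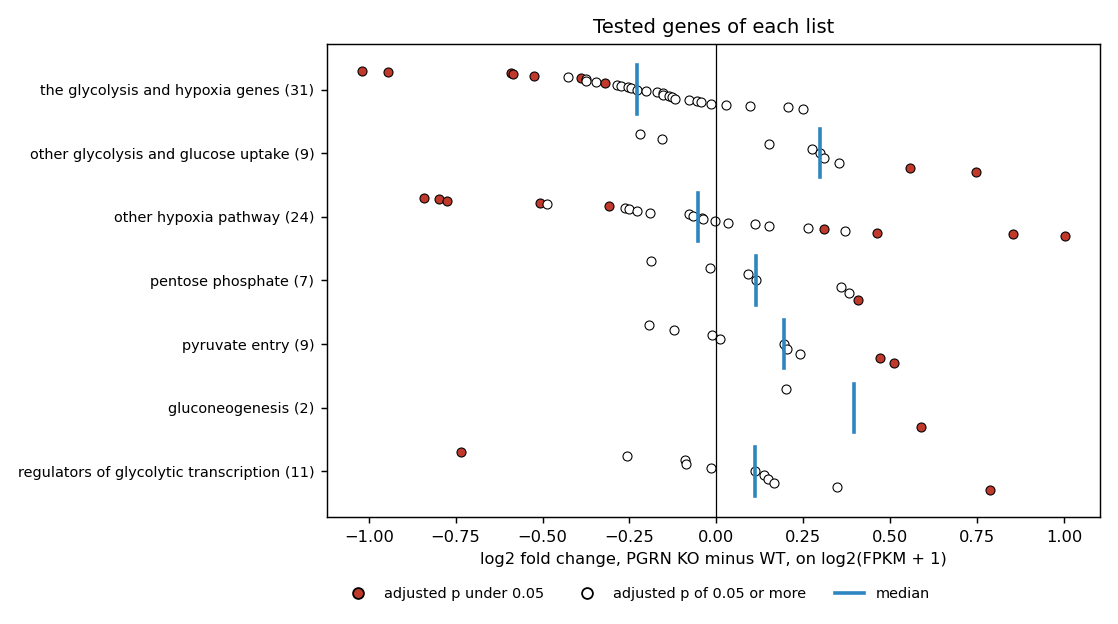
Each point is 1 tested gene, placed by its log2 fold change (PGRN KO minus WT on log2(FPKM + 1), horizontal axis) in the row of its list, with the number tested in brackets. Red points passed an adjusted p of 0.05 and blue bars are medians. The glycolysis and hypoxia genes have a median of -0.23 with 7 red points, all left of 0, the other hypoxia genes have red points on both sides, and the red points of the other glycolysis genes, 2 in all, lie right of 0.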

How the data were processed

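RNA libraries of 3 WT and 3 PGRN KO macrophage samples were analysed from 1 table. The deposited values are FPKM, which the authors made from fragments counted per gene, and the same table gives the length of each gene model. Per the labels' processing notes, HISAT2 2.0.5, featureCounts 1.5.0-p3, DESeq2 1.20.0 and the builds mm10 and GRCm38 were involved, whereas the study's methods name HISAT and HTSeq for alignment and counting. Annotation release and strand setting: not given in the sources used here. FPKM times gene length came out as whole multiples of 1 step (tolerance 0.001 of a step) for 100.0% of values above 0, which gave the fragments per library. Intervals cover the spread between libraries, and reads that lack molecular identifiers need not be separate molecules.

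Genes with a mean of at least 1 FPKM (8882) were fitted by limma 3.58.1 (R 4.3.3) on log2(FPKM + 1), without covariates, two-sided, with a trend of variance on mean and Benjamini-Hochberg adjustment over all of them (threshold 0.05). On this scale the change of genes with low FPKM is understated. The test was tested on simulated data without a library that stood apart and without a trend on gene length. The simulation therefore does not cover calls that depend on PGRN KO replicate 6. Isozyme shares were compared by exact permutation over all 6 libraries, and not without PGRN KO replicate 6. The count model that the authors used was not run. The table holds FPKM, and the fragments recovered from it were used for limma voom. Alternatives were a pseudocount of 0.1, no filter, a mean of at least 5 FPKM, TPM scale, fragment sums, quantile normalization, no trend, sample quality weights, limma voom on recovered fragments, a loess correction for gene length (span 0.5) with all libraries and without PGRN KO replicate 6, leaving out each library and, chosen after seeing the data, a loess correction for transcript length and GC content (known for 99.93% of tested genes). Coordinates follow the table, whose identifiers were found in GENCODE vM21 for 99.77% of genes. Promoters came from RefSeq (GRCm38.p6). The members and gene lists were chosen with earlier results of these data known. All 32 genes are named, and of each other list up to 3 genes per direction with the largest fold change past the threshold, apart from 1 gene that is counted but not reported here. The groups share no replicate numbers, so no pairing was used.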

Additional observations from a re-analysis of the deposited data

How the results depend on the processing

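The number of glycolysis and hypoxia genes called lower, 7 as reported, was 11 after correction for gene length, 14 after correction for transcript length and GC content (chosen after seeing the data), 20 with sample quality weights, in which PGRN KO replicate 6 had a weight of 0.09, and 20 with the length correction and without that library. It ranged from 3 to 20 when 1 library was left out, and the share of all tested genes called lower moved with it, from 4.3% to 25.1%. The number called higher, 0 as reported, was 1 (Hk3) with the fragment sums as library size, under quantile normalization and with sample quality weights. Over all tested genes 2151 were called as reported, 1366 without the filter on low FPKM, 4225 with sample quality weights, 3676 with the length correction and without PGRN KO replicate 6, and 713 to 3668 when 1 library was left out. Limma voom on the recovered fragments called 2267 genes, 8 of them among the 31 and lower. Over the 31 genes, 447 of the values under the alternatives kept their direction and side of the threshold, 60 newly passed, 20 no longer passed and 29 turned direction, and the cause was not tested.

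None of the 29 values that turned direction passed the test in either setting. With the fragment sums Pfkl turned to 0.082, Pfkfb4 to 0.004, Eno1 to 0.045 and Ldha to 0.057, and on the TPM scale Pfkl turned to 0.037 and Ldha to 0.011. Quantile normalization turned Pfkl to 0.019 and Eno1 to 0.002, and the length correction turned Pfkl to 0.048. Sample quality weights turned Aldoa to -0.035 and Eno2 to -0.006. The length correction combined with leaving out PGRN KO replicate 6 turned Aldoa to -0.037, Gapdh to 0.169 and Eno2 to -0.013, and the correction for transcript length and GC content turned Eno2 to -0.044 and Pdk1 to 0.007. When each library was left out in turn, the log2 fold change ranged from -0.164 to 0.068 for Pfkl, from -0.054 to 0.173 for Aldoa, from -0.97 to 0.503 for Gapdh, from -0.227 to 0.044 for Eno1, from -0.085 to 0.154 for Eno2 and from -0.202 to 0.037 for Ldha. Pfkfb3, Slc16a1 and Vegfa passed under all 18 alternatives.

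No paired analysis was possible because WT and PGRN KO share no replicate numbers. With 3 libraries per group an exact permutation test cannot go below 0.1. A gene at 1 FPKM rests on few fragments, as Ldhb shows with 21 to 38 per library, and differences of that gene are limited by counting. Where several genes share sequence (12 of the 31 above 10% of 31-base words), depth does not help to place the reads.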

Other observations

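Of the genes under 91 further pathway symbols listed beside the 32, many were close to silent in these macrophages. Among the glucose-handling enzymes and carriers of other tissues, Pklr, Pck1, Fbp1, Fbp2 and G6pc were listed at 0 FPKM in both genotypes, and Hkdc1 had means under 0.05 FPKM. Slc2a3, a second glucose carrier, had means of 0.805 (WT) and 1.06 FPKM (PGRN KO), against 753 and 524 FPKM for Slc2a1. Car9, a carbonic anhydrase known as a hypoxia target, had means of 0.494 and 0.525 FPKM, and Pdk4 was listed at 0, against 5.68 and 5.11 FPKM for Pdk1. These genes were below the level tested, so no comparison between the genotypes was made.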
